A study of Saccharum hybrid cultivar with 68 samples.

Results

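Stem of the sugarcane cultivar ROC22 was sequenced for messenger RNA when sucrose accumulation was at its early and at its middle stage, and the 3 middle libraries were set against the 3 early ones. These 6 libraries, out of 68 in the series and 36 for mRNA, were taken by their genotype, tissue and growth phase labels, and no measured value entered the choice. The series compares ROC22 with a second genotype, GT86-887, described as contrasting with it in sucrose content, in leaf and stem at an early, a middle and a late stage. The labels do not say which genotype is the richer in sucrose. No treatment, transgene or age in days is given, and the stage is known only by its name. Per the labels, total RNA was extracted from the tissue, and which internodes were taken is not given. In such bulk samples fewer cells of a type and less RNA per cell cannot be told apart.

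Sucrose made in leaves travels through the phloem to the stem, where it is stored in the vacuoles of parenchyma cells while the internodes finish growing. The period of accumulation therefore overlaps with the end of cell expansion and with the thickening of cell walls. Sucrose synthases, invertases, sucrose transporters and cell wall enzymes are the genes usually followed in this tissue. The assembled transcripts of this study, called unigenes below, come with identifiers and without gene names, so none of these genes could be looked up and the stem label could not be checked against marker genes. What is known of single unigenes here comes from their own values and from a deposited list that pairs some of them with microRNAs (miRNAs, which pair with mRNAs of matching sequence and lead to their cutting or silencing).

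That list comes from degradome sequencing, which reads the 5′ ends of cleaved RNA. The entries of conserved miRNA families that are paired with unigenes changed at least 2-fold have these sequences, shown because the results on paired unigenes turn on them. Letters are the deposited ones, with T for U, and the capitals mark bases 2 to 8, called the seed.
miR827-y: tTAGATGAccatcagcaaaca
miR827-z: tTAGATGAccatcaacaaaca
miR396-x: tCCACAGGctttcttgaactg
miR396-z: tCCACAGGctttcttgaacgg
miR157-y: gCTCTCTAtgcttctgtcatc
miR535-x: tGACAACGagagagagcacgc
miR395-z: tGAAGTACttgggggaact
miR159-x: gAGCTCCTatcattccaatga
miR169-y: tGGCATCCattcttggctaag
The 2 miR827 entries share a seed, as do the 2 miR396 entries, and the others each have their own. All but miR395-z are 21 bases long.

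The 3 early libraries held 24929466, 21744408 and 19241718 counts and the 3 middle libraries 24004709, 22521787 and 22969466. Log2 levels correlated at 0.974 to 0.977 among the early libraries, at 0.976 to 0.980 among the middle ones and at 0.950 to 0.959 between the stages, so each library resembled its own stage most. Another library of the series stood apart. The first of the 3 GT86-887 middle stem libraries correlated at 0.878 to 0.880 with the other 2 of its group and at 0.9003 to 0.911 with the ROC22 middle libraries. The 81 unigenes that had counts in ROC22 stem and none in the other 8 GT86-887 stem libraries summed to 155.9 CPM (counts scaled to a common library size of 1e+06) in it, against 225 to 315 in the ROC22 libraries. The 91 unigenes with the reverse pattern summed to 33.5 CPM in it, against 237 to 450 in the other GT86-887 libraries. This library is not among the 6 compared here, but it enters the shared estimate of spread and every comparison with GT86-887, so counts and overlaps with GT86-887, and the GT86-887 changes of the unigenes named by identifier, are given with and without it.

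From the early to the middle stage, 3112 of 36199 tested unigenes changed, which is a background of 8.6%. The filter on low counts used all 18 stem libraries, and the lowest mean level among the tested unigenes was 0 CPM. Unigenes without counts in the libraries compared cannot pass here but remain in the 36199, which lowers this background. With the filter and fit on the compared libraries alone, 30935 were tested. Of the 3112 that changed, 1238 rose (3.42% of the 36199 tested) and 1874 fell (5.18%). Those that fell did so by a median of -1.19 on the log2 scale, and those that rose did so by a median of 0.99. At least 2-fold changes numbered 1727 (4.77%), with 613 up and 1114 down, and at least 16-fold changes (log2 of 4) numbered 25 up and 76 down. A change is called here when the Benjamini-Hochberg adjusted p of edgeR's quasi-likelihood test over all 18 stem libraries lies below 0.05, and levels are in CPM scaled by the trimmed mean of M values (TMM).

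**Figure D1:**
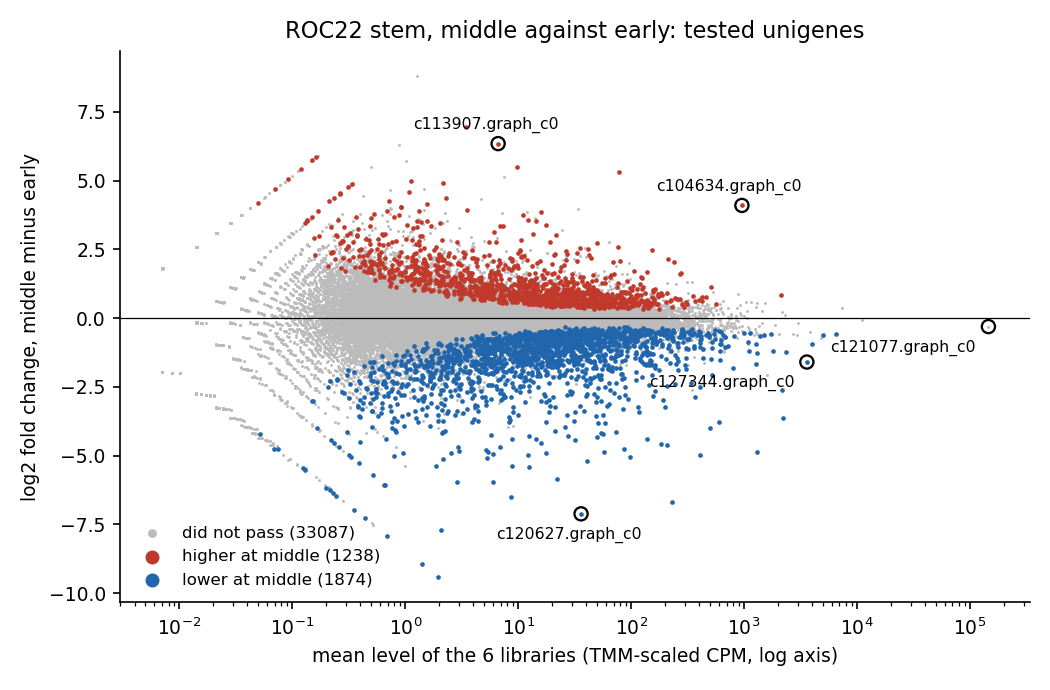
Each point is 1 tested unigene of ROC22 stem, with its mean level over the 6 libraries in TMM-scaled CPM on a log axis and its log2 fold change, middle minus early. Red points are the 1238 that rose, blue points the 1874 that fell and grey points those that did not pass. Circles mark the unigenes named in the text, and at the highest levels most coloured points are blue.

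The balance between rises and falls depended on how libraries were scaled. With TMM the median change of all tested unigenes was 0. With library totals alone that median was 0.16 on the log2 scale. Then 2590 unigenes were higher and 1226 lower, so that 67.9% of the calls were rises against 39.8% with TMM. With the size factors of DESeq2 the counts were 1220 higher and 1869 lower. Leaving out 1 of the 6 libraries lowered the count to between 1493, without the second middle library, and 2016, without the first middle library. Without the GT86-887 library that stood apart, which is no part of this comparison, 4763 unigenes passed, among them all of the 3112. With only the 6 libraries compared in the fit, 6641 passed, 3072 higher and 3569 lower.

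As shares of a library's counts, which amounts to scaling by library totals, the sets called with TMM were as follows. The 1874 unigenes that fell held 16.5%, 16.1% and 15.7% of the counts in the early libraries and 8.74%, 8.40% and 8.66% in the middle ones. The 1238 that rose held 2.88%, 2.77% and 2.52% early and 5.05%, 5.74% and 5.88% at the middle stage. Both sets were chosen for this difference, so these shares describe its size in reads and are no test. The 3 late ROC22 stem libraries, which did not enter the choice of these sets, gave 8.85%, 9.81% and 8.12% for the first set and 5.47%, 4.91% and 5.49% for the second. In the late libraries both sets thus stood near their middle share. For comparison, the step from middle to late, which shares the middle libraries, had 732 calls (2.02%), 476 higher and 256 lower.

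**Figure D2:**
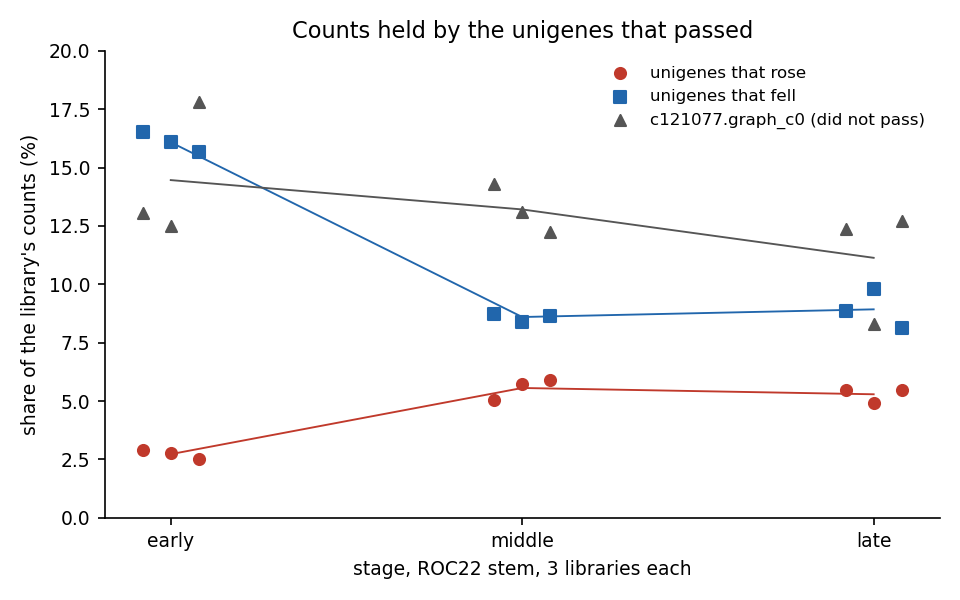
Share of a library's counts, in percent, in the 3 early, 3 middle and 3 late ROC22 stem libraries (points, with lines through the stage means). The set that fell goes from at least 15.7% early to at most 8.74% at the middle stage and the set that rose from at most 2.88% to at least 5.05%, both staying near that share at the late stage, while the most abundant unigene varies between 8.32% and 17.8% with overlapping stages.

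The falls included many of the most abundant stem transcripts. Among the 100 unigenes with the most counts in the 6 libraries, 24 fell and 2 rose, with a median change of -0.34. With library totals as scaling, 14 fell and 5 rose, with a median of -0.17. Among the 10 most abundant, 4 fell and 0 rose by edgeR (0 at an unadjusted p below 0.05, 0 with DESeq2), and with library totals 1 fell and 0 rose. In the highest tertile of tested unigenes by level, above 10.3 CPM, 5.62% rose and 9.56% fell, whereas in the lowest tertile, up to 1.36 CPM, 1.67% rose and 1.34% fell. The order within the highest tertile turned round with library totals, where 13.2% were higher and 5.92% lower.

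The most abundant unigene of all, c121077.graph_c0, did not pass. It took 13.1%, 12.5% and 17.8% of the counts in the early libraries and 14.3%, 13.1% and 12.2% in the middle ones, and the groups overlapped. Its log2 change was -0.31 ± 0.57 (SE, n = 3 libraries per stage) with an adjusted p of 0.818 in edgeR. It was named for its share after its values were seen, as the transcript with the largest share of the 6 libraries.

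Transcript length, implied by the ratio of counts to the FPKM values (read fragments scaled for transcript length and library size) that the authors deposited beside them, differed between the directions. Of the 27619 tested unigenes with at least 100 counts, the shortest tertile, with a median length of 545 bases, had 1.99% rising and 6.43% falling. The longest tertile, with a median of 2264 bases, had 6.33% rising and 5.83% falling. The median length was 1611 bases for unigenes that rose and 1108 for those that fell, against 1150 for all. Longer transcripts collect more counts, and the part of this in the shares was not tested.

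The strongest fall by the naming rule, which takes the largest change above the median level with libraries that do not overlap, was in c120627.graph_c0, of about 887 bases. It stood at 68.8, 75.9 and 70.0 CPM in the early libraries and at 0.692, 0.170 and 0.669 CPM in the middle ones. All 3 middle libraries thus held under 1 CPM of a transcript that was even across the early ones. The log2 change was -7.12 ± 0.91 with an adjusted p of 0.000162 in edgeR, and it passed under each of the 16 alternatives run. The late libraries read 1.12, 6.06 and 0.369 CPM. In GT86-887 stem it went from 148, 139 and 121 CPM to 0.151, 1.62 and 0.421 CPM, also a fall (-7.49 ± 0.90, adjusted p = 6.79e-05 in edgeR, and -7.05 with 0.000235 without the library that stood apart). In ROC22 leaf no library of these stages held more than 0.472 CPM.

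The most abundant unigene that fell at least 2-fold was c127344.graph_c0, of about 949 bases, which the degradome list pairs with a predicted miRNA entry. Its early levels were 5166, 5042 and 6026 CPM and its middle levels 2399, 1649 and 1315 CPM. The groups did not overlap, and the change was -1.60 ± 0.47 with an adjusted p of 0.0431 in edgeR. The late libraries spread over 2243, 4093 and 1070.0 CPM, each below every early library. The call was near the threshold: it was lost in 8 of 16 alternatives, with every single ROC22 library left out (adjusted p = 0.0577 to 0.161), with library totals and with the replicate block. In GT86-887 stem the change was -1.20 ± 0.46 and did not pass (adjusted p = 0.0848 in edgeR), nor did the -0.92 without the library that stood apart (adjusted p = 0.241 in edgeR). The difference between the genotypes did not pass either (adjusted p = 0.887 in edgeR, 0.768 without that library). That entry had 0 counts in the 3 early and 3 late ROC22 stem small RNA libraries, which allows up to 3.45 CPM early and 1.63 CPM late by counting error alone.

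The largest rise by the same rule was in c113907.graph_c0, a short unigene of about 472 bases. It had 1, 2 and 6 counts in the early libraries and 84, 436 and 411 in the middle ones, or 0.0421, 0.102 and 0.365 CPM against 3.63, 18.5 and 17.2 CPM. The first middle library thus held less than the other 2, but well above every early library. The change was 6.34 ± 0.89 with an adjusted p of 0.000364 in edgeR, and 7.43 without the third early library. At the late stage it stood at 0.388, 0.470 and 1.94 CPM, below every middle library. No GT86-887 stem library of the early or middle stage held more than 0.148 CPM of it, which is at or near single counts, so no fold is given there, and the test of the difference between genotypes did not pass (adjusted p = 0.171 in edgeR, 0.172 without the library that stood apart).

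The most abundant unigene that rose at least 2-fold was c104634.graph_c0, of about 1521 bases. It went from 152, 64.5 and 101 CPM to 709, 1169.5 and 3549 CPM. The middle libraries all lay above the early ones but differed widely among themselves, and the change was 4.09 ± 1.16 with an adjusted p of 0.0381 in edgeR. The call was lost without any 1 of the early libraries or without the second or the third middle library, with changes of 3.15 to 4.45 and adjusted p of 0.0670 to 0.140. At the late stage the levels were 2106, 67.9 and 736 CPM, so that 1 late library lay within the early range. In GT86-887 stem it went from 3.02, 1.85 and 3.28 CPM to 95.1, 2.31 and 59.6 CPM, and the second middle library there lay within the early range. That change passed with all libraries (4.26 ± 1.21, adjusted p = 0.0252 in edgeR) but not without the first middle library, which stood apart (3.51, adjusted p = 0.0704).

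**Figure D3:**
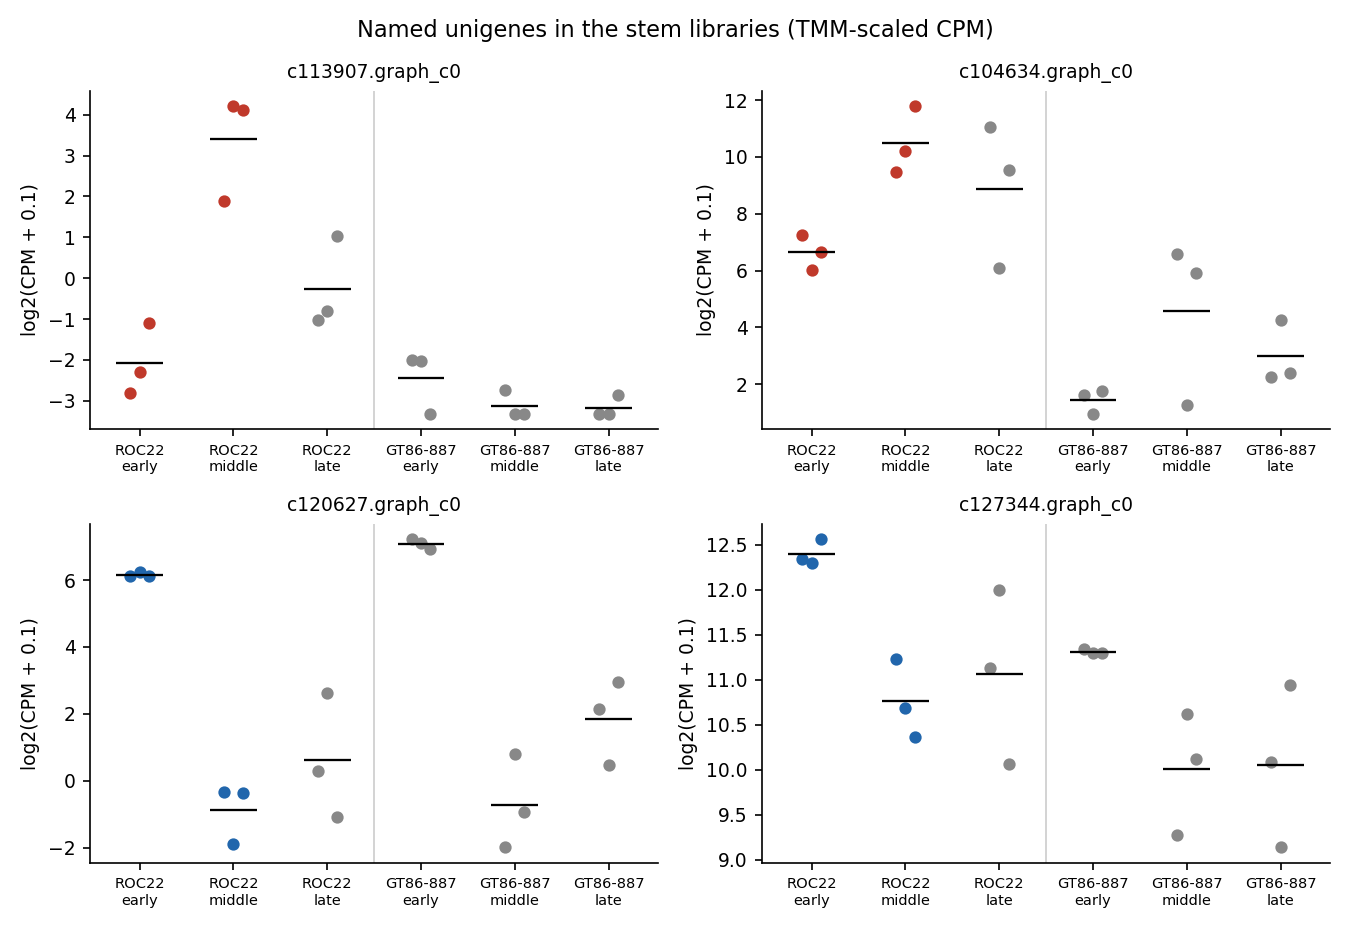
Levels of the 4 named unigenes in every stem library, as log2 of TMM-scaled CPM plus 0.1, with 1 panel per unigene, 1 point per library and a bar at the mean of each stage. Red (rose) and blue (fell) points are the early and middle ROC22 libraries compared here, and grey points are the late ROC22 and all GT86-887 stem libraries. c120627.graph_c0 is low at the middle stage in both genotypes, while c113907.graph_c0 is highest in the 3 ROC22 middle libraries.

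Unigenes whose identifiers share the part before the dot come from 1 assembly component and can be pieces or variants of 1 gene, so they are not independent. Of 2968 components with at least 2 tested unigenes, 70 had at least 2 that passed. All of these moved up in 25 components and down in 42, and in 3 components the directions differed. In 1 component all 4 unigenes fell, by -6.50, -5.97, -5.85 and -5.07 on the log2 scale. Its most abundant member went from 39.9, 31.4 and 59.5 CPM to 0.735, 1.02 and 0.502 CPM. That component was chosen after its values were seen, as the largest joint fall.

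Some unigenes were read at 1 stage and not at the other. With at least 30 counts over the 3 libraries of a stage and 0 in the other stage, 14 were at 0 at the middle stage and 33 at 0 at the early stage. Of the 14, 10 had counts in all 3 early libraries, 9 could be tested and 6 passed. The 14 were chosen for this same difference, so the 6 that passed are no separate support. The highest had 56, 133 and 42 counts early and 0 in every middle library, which makes it at least 81.2-fold lower, taking 3 counts over the group as the floor. The 33 were of another kind, since only 2 had counts in all 3 middle libraries. In 31 of them over 90% of the middle counts were in the third middle library, and that library held 98.2% of the counts of the whole set. Only 1 of the 33 entered the test, and it did not pass. What sets this library apart in those 33 unigenes was not tested.

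The degradome list holds 871 pairs of a miRNA and a unigene, with 752 unigenes, of which 698 were tested. Of these 31 rose and 64 fell, or 13.6% against the 8.6% of all tested unigenes. Paired unigenes were also more abundant, with a median of 27.8 CPM against 3.70 CPM. In the highest tertile of levels, where 5.62% of all unigenes rose and 9.56% fell, 4.64% of 496 paired unigenes rose and 11.7% fell. The median change of all paired unigenes was -0.03. Pairs rest on 1 degradome library per genotype, tissue and time, so that a pair has no replicate check. The miRNAs were not sequenced at the middle stage. Of the 871 pairs, 194 had tags in the early ROC22 stem library and 249 in the other ROC22 stem one. No tag in either was listed for several conserved-family unigenes that passed. They are those paired with miR827-y alone, with both miR396-x and miR396-z, and with miR159-x, miR169-y, miR171-y, miR156-x, miR157-x or miR397-y.

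For conserved families, 116 unigenes were paired and 108 tested, of which 5 rose and 11 fell (14.8%). With DESeq2 9 rose and 16 fell. By edgeR these are 4.63% and 10.2%, against 3.42% and 5.18% of all tested unigenes. The median level of the 108 was 30.5 CPM, and in the highest tertile of levels 5.62% of all unigenes rose and 9.56% fell. The count is thus near the share at such levels. For the groups and single families below, the 8.6% of all tested unigenes is a background that takes no account of level. Median levels were 31.5 CPM for the transcription factor group, 39.5 CPM for nutrient and copper and 42.7 CPM for small RNA machinery. They were 10.3 CPM for auxin pathway and 11.8 CPM for the other families, against 3.70 CPM for all. The shares of the highest tertile are thus the nearer background for the groups. The lists of families were chosen with earlier results of these data known. Families known in Arabidopsis and rice to target transcription factors had 52 tested unigenes, of which 3 rose and 5 fell. Nutrient and copper families had 27, of which 2 rose and 4 fell. Auxin pathway families had 7, with 0 rising (0 at an unadjusted p below 0.05, 0 with DESeq2) and 1 falling. Small RNA machinery families had 4, likewise with 0 rising by edgeR, unadjusted or with DESeq2, and 1 falling. The other conserved families had 22, of which 1 rose and 1 fell. The median change over the 108 was -0.01, close to the 0 of all tested unigenes. A family's known targets do not identify the paired unigene, which carries no annotation. Known targets are also those of a family's main strand. An entry can be the opposite strand of the hairpin, which need not share them, and the strand of the entries was not checked.

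Unigenes paired with miR827, known for cleaving transcripts of SPX-domain proteins in phosphate transport and sensing, moved in both directions. Of 11 tested, 2 fell and 1 rose. The first, paired with miR827-y, stood at 165.4, 183 and 185 CPM early and at 77.4, 60.3 and 73.2 CPM at the middle stage. Each middle library was under the lowest early one, with a change of -1.34 ± 0.15 and an adjusted p of 6.42e-05 in edgeR. The second, paired with miR827-y and miR827-z and carrying the most tags of the family here (26 in the early ROC22 stem degradome library), went from 52.8, 56.7 and 69.1 CPM to 39.2, 24.5 and 24.3 CPM. Its change of -1.02 ± 0.31 only just passed (adjusted p = 0.0499 in edgeR) and did not pass in 9 of 16 alternatives, among them 5 single libraries left out, with adjusted p of 0.0804 to 0.188. The third, paired with miR827-z, rose from 22.3, 19.1 and 19.5 CPM to 26.7, 37.1 and 35.0 CPM (0.70 ± 0.18, adjusted p = 0.0253 in edgeR). The miRNA itself was plentiful as miR827-y, at 19041 ± 6518 CPM of the miRNA counts in early ROC22 stem (SD, n = 3 libraries), and scarce as miR827-z, at 37.1 ± 19.4 CPM.

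Among the 16 conserved-family unigenes that passed, the highest level was that of a unigene paired with miR157-y and with miR535-x. It is also paired with miR5059-z and miR7752-y, outside the conserved families. The main strands of the miR156 and miR157 families target SPL genes of phase change and branching, which need not hold for miR157-y. This unigene went from 3278, 3198 and 3330 CPM to 1386, 1372 and 1434 CPM. The libraries of each stage lay within a few percent of each other, and the change was -1.23 ± 0.17 with an adjusted p of 0.000322 in edgeR. It had 12 tags in the early ROC22 stem degradome library and 7 in the other ROC22 stem one. Both conserved entries were near the counting limit in early ROC22 stem small RNA, at 0.969 ± 1.68 CPM for miR157-y and 1.94 ± 3.37 CPM for miR535-x.

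Of 3 tested unigenes paired with miR396, whose family acts on growth-regulating factors of organ growth, 1 fell. It is paired with miR396-x and miR396-z and went from 14.9, 16.8 and 13.5 CPM to 7.18, 7.13 and 7.65 CPM. The early and middle libraries did not overlap, and the late ones, at 7.57, 7.38 and 8.03 CPM, stayed at the middle level. The change was -1.04 ± 0.16 with an adjusted p of 0.000763 in edgeR, and it passed in each of the 16 alternatives. A second unigene paired with the same entries had a change of 0.26 (adjusted p = 0.574 in edgeR), and one paired with miR396-x alone had -0.33 (adjusted p = 0.380). In the early small RNA libraries of ROC22 stem miR396-x held 396656 ± 62172 CPM, the highest of the entries printed above.

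The 1 tested unigene paired with miR159-x, of a family that targets MYB factors, fell from 103, 79.4 and 69.1 CPM to 25.3, 39.0 and 35.8 CPM (-1.33 ± 0.32, adjusted p = 0.0159 in edgeR). It did not pass without the first early, the first middle or the third middle library (adjusted p = 0.0517 to 0.0717). Of 5 tested unigenes paired with miR169, of a family that targets NF-YA factors, 1 rose. It is paired with miR169-y and went from 5.69, 4.14 and 7.30 CPM to 16.3, 16.1 and 11.8 CPM. It was the 1 unigene of a conserved family that rose at least 2-fold (1.37 ± 0.41, adjusted p = 0.0480 in edgeR). This call was lost without any 1 of the 6 libraries (adjusted p = 0.0736 to 0.181). Another unigene paired with miR169-y had a change of 0.35 that did not pass (adjusted p = 0.424 in edgeR). The MYB and NF-YA targets are those of the families' main strands, and need not hold for miR159-x and miR169-y, whose strand was not checked.

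Outside the transcription factor families, 1 of 2 tested unigenes paired with miR395-z fell, and the other had a change of -0.14 (adjusted p = 0.483 in edgeR). The family targets ATP sulfurylases and a sulfate transporter. The levels of the unigene that fell were 18.2, 20.3 and 18.4 CPM early, 6.96, 7.22 and 7.82 CPM at the middle stage and 12.2, 22.7 and 10.1 CPM late, so that the second late library lay above the early ones and the other 2 between the stages. The change was -1.37 ± 0.27 with an adjusted p of 0.00484 in edgeR.

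Smaller changes that passed were seen for 9 further conserved pairs. Those that fell were paired with miR171-y (-0.83 ± 0.19), miR397-z (-0.57 ± 0.14), miR390-y (-0.50 ± 0.12), miR156-x (-0.49 ± 0.13) and miR162-y (-0.42 ± 0.11). The miR171 family acts on GRAS factors and the miR397 family on laccases of wall lignification. The miR162 family targets the miRNA-processing enzyme DCL1. The main strand of the miR390 family acts through TAS3 RNAs on auxin response factors, but the strand of miR390-y was not checked. The miR390-y entry had 0 counts in the 3 early ROC22 stem small RNA libraries, which allows up to 3.45 CPM by counting error alone. Those that rose were paired with miR157-x (0.62 ± 0.15), with miR397-y (0.42 ± 0.12) and with both miR444-y and miR530-z (0.41 ± 0.11), and the miR827-z pair above belongs here too. For miR171-y the same sequence is also listed as miR479-z. Their adjusted p in edgeR ranged from 0.0119 to 0.0449, and none of these 9 changed direction under any of the 16 alternatives run for each. Each call was lost in 2 to 9 of them, with adjusted p up to 0.227 in edgeR, and the removal of the second middle library lost all 9.

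**Figure D4:**
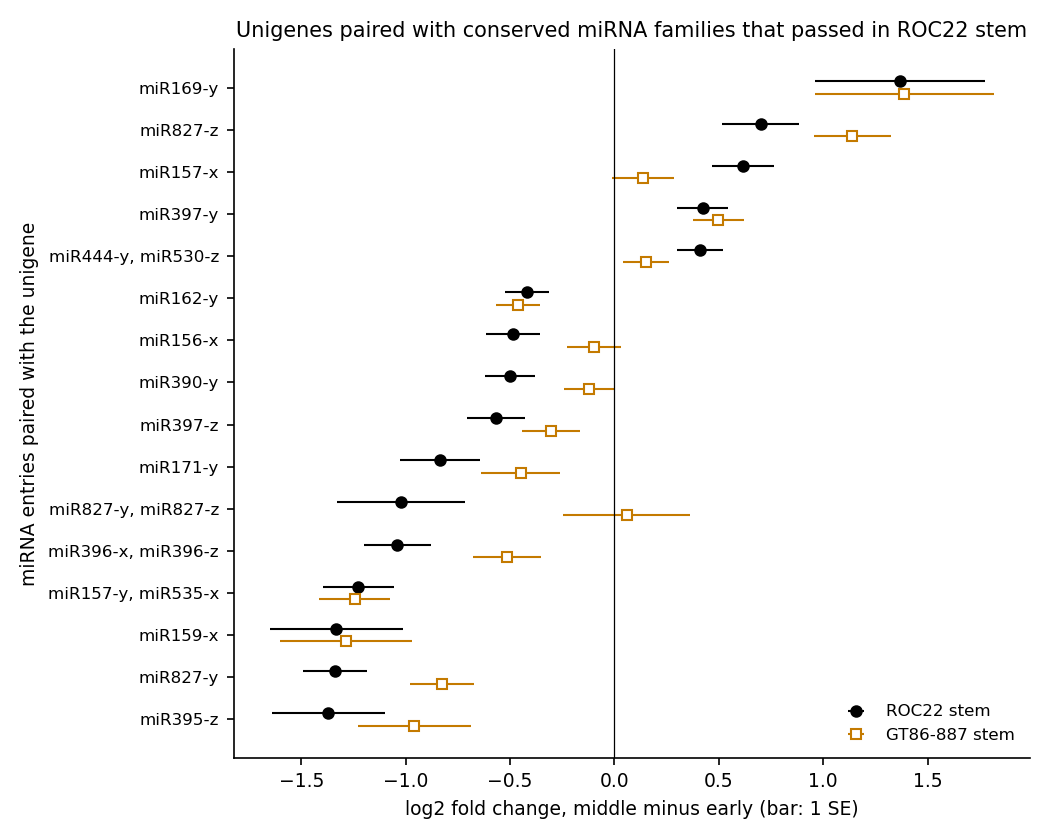
Log2 fold change, middle minus early, of the 16 unigenes paired with conserved miRNA families that passed in ROC22 stem, labelled by their miRNA entries. Filled circles are ROC22 and open squares GT86-887, with bars of 1 SE. The ROC22 changes run from -1.37 for miR395-z to 1.37 for miR169-y, and the GT86-887 value lies near 0 for the unigene paired with miR827-y and miR827-z (0.06 against -1.02).

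Several families had tested unigenes and none that passed. For miR172, whose targets are AP2-like factors of flowering time, 0 of 10 passed by edgeR, 2 were higher at an unadjusted p below 0.05 and 1 was higher by DESeq2, with changes of -0.11 to 0.79. For miR528, a grass family that targets copper proteins, 0 of 5 passed by edgeR, with 1 lower unadjusted and 1 by DESeq2. For miR156, the family with the most tested unigenes, 1 of 15 fell. Changes in that family ran from -1.43 to 0.52.

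The same step in GT86-887 stem, which shares no library with the ROC22 one, had 5937 calls (16.4%), 2995 higher and 2942 lower, and 4552 without the library that stood apart. Leaving out other single libraries gave from 3166, without the first early one, to 6152, without the second middle one. With only its own 6 libraries in the fit GT86-887 stem had 2051 calls, against 6641 for ROC22 stem fitted the same way, so which genotype had more calls depended on the libraries in the fit. Of the 1238 unigenes that rose in ROC22, 692 (55.9%) also rose in GT86-887, which is 23.1% of the rises there, and 9 fell. Of the 1874 that fell, 1226 (65.4%) also fell, which is 41.7% of the falls there, and 5 rose. Without the library apart these overlaps were 566 (45.7%) and 1101 (58.8%). The median change in GT86-887 was 0.74 for the first set and -0.998 for the second, against 0.02 for all tested unigenes. Of all tested unigenes 8.27% rose and 8.13% fell in GT86-887.

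**Figure D5:**
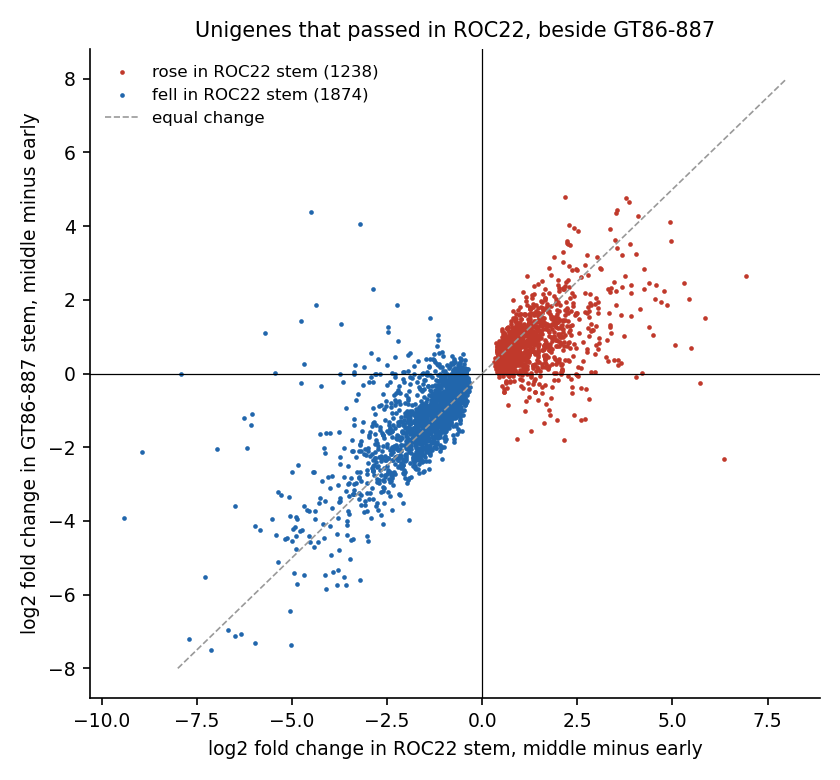
Log2 fold change, middle minus early, of the unigenes that passed in ROC22 stem (horizontal) and their change in GT86-887 stem (vertical), with a dashed line of equal change. Most of the 1238 red and 1874 blue points lie in the quadrants where both genotypes moved the same way.

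Whether the step itself differed between the genotypes was tested directly. The difference passed for 1 unigene of 36199 (0.00276%), while 3696 had an unadjusted p below 0.05, 14 passed with the stricter filter on low counts, 378 with no filter and 308 with DESeq2. Without the library apart 38 passed (0.101%), 27 with a higher change in ROC22 and 11 with a lower one. Without the second GT86-887 middle library 7 passed, without the third ROC22 early library 1 passed, and without any 1 of the other 9 libraries the count was 0 by edgeR. The 1 unigene stood at 2.23, 1.99 and 2.92 CPM early and 4.84, 4.12 and 4.43 CPM at the middle stage in ROC22. In GT86-887 it went from 31.3, 32.0 and 34.6 CPM to 5.99, 12.3 and 10.1 CPM. The change was thus 0.91 ± 0.25 in ROC22 and -1.79 ± 0.23 in GT86-887, and they differed by 2.70 ± 0.34 (adjusted p = 0.0221 in edgeR, 0.00219 without the library apart). Calls made in ROC22 alone are for these reasons not shown to be particular to it. None of the 16 conserved-family unigenes passed this test, including the second miR827 unigene (difference -1.08 ± 0.43, adjusted p = 0.414 in edgeR, 0.424 without the library apart).

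In ROC22 leaf the same stages gave 5722 calls (13.6%), 2412 higher and 3310 lower. Of the 1238 stem rises, 225 (18.2%) rose in leaf as well, 9.33% of the leaf rises, and 75 (6.06%) fell. Of the 1874 stem falls, 498 (26.6%) fell in leaf, 15.05% of the leaf falls, and 86 (4.59%) rose. For comparison, of the 36083 unigenes tested in both fits, 6.16% rose and 7.56% fell in leaf. The median leaf change was 0.19 for the first set and -0.37 for the second, against 0 for those 36083. The difference between the stem change and the leaf change passed for 2943 of 42119 unigenes (6.99%), 1367 higher and 1576 lower in stem. Of the 3112 stem calls, 986 (31.7%) were among these, which is 33.5% of them.

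Among the conserved-family unigenes that passed, the first miR827 unigene, paired with miR827-y, differed between the tissues. Its leaf levels were 330.3, 369 and 354 CPM early and 387, 299 and 353 CPM at the middle stage, and the stem change minus the leaf change was -1.33 ± 0.22 (adjusted p = 0.000320 in edgeR). The one with miR159-x went from 460.1, 444.1 and 447 CPM to 660, 666 and 669 CPM in leaf, where its change of 0.56 did not pass (adjusted p = 0.147 in edgeR), and the difference was -1.91 ± 0.36 (adjusted p = 0.00120 in edgeR). The one with miR156-x rose in leaf (0.43, adjusted p = 0.0306 in edgeR) and fell in stem, a difference of -0.93 ± 0.19 (adjusted p = 0.00284 in edgeR). The unigenes paired with miR396-x and with miR157-y and miR535-x fell in both tissues, by -1.62 and -1.59 in leaf, and their tissue differences did not pass (adjusted p = 0.190 and 0.538 in edgeR).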

How the data were processed

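The mRNA table holds whole-number counts per unigene and library as the authors deposited them, with an FPKM value beside each count per the file headers. FPKM served only to estimate length. Counts per miRNA entry and library were deposited by the authors for small RNA, and tags per miRNA and unigene pair for the degradome. Assembler, aligner, counter, miRNA caller and target caller: not given in the sources used here. One ROC22 stem degradome library carries a late code in its title and a middle stage label, so no stage was assigned to it.

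The 18 stem libraries were fitted together with edgeR 4.0.16 in R 4.3.3 (TMM scaling, filterByExpr at default, 1 coefficient per genotype and stage, common and trended dispersion, quasi-likelihood test, Benjamini-Hochberg adjustment). The fit was also run on simulated counts with the same spread for every unigene and no library apart. That run does not measure the error of the calls in these data. Leaf was compared in a fit of all 36 mRNA libraries. Correlations used log2 CPM with a prior count of 2. Alternatives were scaling, filters, DESeq2 1.42.0, fewer libraries, a replicate block and leaving out each library. Each ROC22 stem stage has 3 libraries of 19241718 to 24929466 counts. The labels do not say whether they came from separate plants, so p-values measure only the spread between libraries, which may be technical. Intervals and floors of 3 counts cover counting error only. Errors are SE of log2 changes unless SD is named. Replicate numbers were not used to pair the libraries in the main fit.

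Named unigenes are, in each direction, the largest passing change in a unigene of more than median level whose libraries did not overlap, and the most abundant of those that passed with at least 2-fold. Paired unigenes are given without identifier. Comparisons, lists and members were chosen with earlier results of these data known. The unigenes carry no gene names in the files used, so lists of sugar and cell type genes were not used here.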

Additional observations from a re-analysis of the deposited data

Results flagged for a closer look

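Differences between tissues or genotypes that passed their own test in edgeR are collected here. The step from early to middle differed between ROC22 stem and leaf for 2943 unigenes, and between the genotypes in stem for 1, whose changes differed by 2.70 on the log2 scale.

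Of the 20 unigenes that passed and are named or paired with a conserved family, 4 had a stem change that differed from the leaf change. For c120627.graph_c0 the difference was -9.20 ± 2.38 (adjusted p = 0.0178), but its leaf levels were 0 to 0.472 CPM, so the leaf side rests on a few counts. For the unigene paired with miR827-y it was -1.33, for that paired with miR159-x -1.91 and for that paired with miR156-x -0.93. Each of these last 3 was more abundant in leaf than in stem at the early stage, with at least 330.3, 444.1 and 342 CPM per leaf library against at most 185, 103 and 169.2 CPM per stem library, scaled in separate fits.

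The 3 largest changes among the other paired unigenes also differed from leaf. The difference was -4.69 ± 1.09 (adjusted p = 0.00741 in edgeR) for the unigene paired with miR11031-z, miR5054-z and miR7756-y, -3.32 ± 1.03 (adjusted p = 0.0465) for one paired with miR2673-z and 2.40 ± 0.56 (adjusted p = 0.00755) for the one paired with miR8049-y. Their leaf libraries held at most 5.93, 7.91 and 1.71 CPM.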

How the results depend on the processing

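The 20 named or conserved-family unigenes that passed, and the 3 other pairs described, kept their direction in every alternative. Direction balance did not: with library totals 2590 unigenes were higher and 1226 lower. With the stricter filter (mean of at least 5 CPM) 990 unigenes passed with at least 2-fold, and 14 passed for genotype by stage, which gave 378 with no filter and 308 with DESeq2. Fitting only the libraries compared gave 6641 calls in ROC22 stem, 3072 higher and 3569 lower, 2752 of at least 2-fold, with 2051 in GT86-887 stem, 0 for genotype by stage and 6194 for stem by leaf. The cause of these shifts was not tested.

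Leaving out single libraries gave 1493 to 2016 calls in ROC22 stem, 461 to 765 higher, 960 to 1251 lower and 1009 to 1286 of at least 2-fold. GT86-887 stem gave 3166 to 6152, genotype by stage 0 to 38 and stem by leaf 1983 to 2515. Chosen after seeing the data, leaving out the GT86-887 library that stood apart gave 4763 calls, 2012 higher, 2751 lower and 2400 of at least 2-fold, and the 9 ROC22 stem libraries alone gave 3627.

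The replicate block gave 2489 calls in ROC22 stem, 4810 in GT86-887 stem, 1 for genotype by stage and 2814 for stem by leaf. Same-numbered early and middle libraries deviated from their group means with correlations of -0.17, -0.08 and -0.15. Differently numbered ones gave -0.01 to 0.16. Whether the number stands for a shared source was not tested. Of unigenes with a mean from 0 up to 1.36 CPM, 1.67% rose and 1.34% fell. The part of depth in this was not tested.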

Other observations

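Pairs outside the conserved families held larger changes than any within them. The unigene paired with miR11031-z, miR5054-z and miR7756-y went from a mean of 789 to 24.9 CPM (-4.99 ± 0.71, adjusted p = 0.000412 in edgeR), and one paired with miR2673-z from 402.7 to 16.5 CPM (-4.61 ± 0.72, adjusted p = 0.000862). The largest rise among pairs was from 0.220 to 2.53 CPM, in the unigene paired with miR8049-y (3.50 ± 0.37, adjusted p = 3.59e-05). These 3, the largest changes among such pairs, were picked after their values were seen, and each passed in every alternative run for it. The entry miR2673-z has 88 paired unigenes, of which 87 were tested. Of these 5 rose (5.75%) and 6 fell (6.90%), against 3.42% and 5.18% of all tested unigenes. The median level of these pairs was 69.9 CPM, against 3.70 CPM for all. In the highest tertile of levels 5.62% of all unigenes rose and 9.56% fell. For miR2102-x, 2 of 34 tested rose and 6 fell (5.88% and 17.6%), against 3.42% and 5.18% of all tested unigenes. The median level of the miR2102-x pairs was 9.90 CPM.

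The second late ROC22 stem library differed from the other late ones in several of the unigenes described, seen after their values were known. It held 4093 CPM of c127344.graph_c0 against 2243 and 1070.0 CPM, 6.06 CPM of c120627.graph_c0 against 1.12 and 0.369 CPM and 67.9 CPM of c104634.graph_c0 against 2106 and 736 CPM. Of unigenes paired with a miRNA, it held 22.7 CPM for miR395-z against 12.2 and 10.1 CPM, 57.9 CPM for miR827-y with miR827-z against 27.9 and 22.8 CPM, 153 CPM for miR171-y against 95.0 and 82.5 CPM, and 6.58 CPM for miR169-y against 19.7 and 22.5 CPM. The unigene paired with miR11031-z stood at 185 CPM in it against 67.3 and 40.7 CPM. The cause was not tested.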
